A study of Mus musculus with 7 samples.

Results

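The genes described are 10 integrin subunits of skeletal muscle and its stroma, taken by symbol from the 31531 genes of the deposited table: the β subunits Itgb1, Itgb3 and Itgb5, and the α subunits Itga7, Itga6, Itga1, Itga5, Itgav, Itga4 and Itga9. Their RNA was measured in muscle fibers from the epaxial muscles of E17.5 mouse fetuses, in 4 WT libraries and 3 dyW libraries. The dyW fetuses were labelled dyW/dyW, that is, homozygous for a disrupted Lama2 gene, which encodes the α2 chain of laminin 211. They came from crosses of heterozygous dyW mice on a C57BL/6 background and serve as a model of LAMA2-congenital muscular dystrophy, whereas the WT fetuses were labelled wt. The fibers were released from the muscle with dispase and collagenase and collected on a strainer, with no sort by cell type. The labels give each library a number and no link to a litter or day, and P-values measure the spread between these libraries.

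Integrins are cell surface receptors made of 1 α and 1 β subunit, which bind extracellular matrix outside the cell and, through talin and kindlin, the actin cytoskeleton inside it. The α subunit largely sets the ligand. In skeletal muscle, α7β1 is the main integrin receptor of laminin 211 on the fiber, and α6β1 is the laminin receptor of muscle progenitors. β1 is the common partner of Itga7, Itga6, Itga1, Itga5, Itga4 and Itga9, and αv pairs with β1, β3 and β5, among others.

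The libraries differed in depth and in their background. The 4 WT libraries held 470804 to 2220813 reads on genes, and the 3 dyW libraries held 14363788, 18297106 and 3663905. In normalized counts, the deposited unit (reads divided by 1 size factor per library), 1 read was worth 2.05 to 5.33 in WT and 0.0974 to 0.488 in dyW. Lama2 itself was at 90.6, 111, 105 and 107 normalized counts in WT, at 4.29 in dyW1, at 6.07 in dyW2 and at 139.7 in the third dyW library. This last library went against its label at the targeted gene and is called the library labelled dyW3, and log2 fold changes and ratios of the subunits are given with and without it. Odorant and vomeronasal receptor genes, known for their expression in sensory neurons, served as a background. Their median over 1272 protein-coding genes is given per kb of exon. This receptor level was 3.41, 6.71, 3.62 and 5.85 normalized counts per kb in WT1 to WT4, 0 in dyW1 and dyW2, and 0.542 in the library labelled dyW3. Lama2 was at 0.925 to 1.62 times it in WT. WT1 and dyW1 also stood apart in their makeup. Summed erythroid markers were 90.6 and 14.2 normalized counts in these 2 and 22249.6 to 253266 in the other 5, and 4 cartilage markers held 16.7% of all counts of WT1. Without WT1 and dyW1, the log2 fold changes of Itgb1 and Itgav were 1.27 and 1.05 (adjusted P-values of 0.222 and 0.211 by limma).

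Of the 10 subunits, 5 had a positive and 5 a negative log2 fold change, and none was called changed at an adjusted P-value under 0.01 with a log2 fold change beyond 1.5 (limma, Benjamini-Hochberg over 25791 tested genes). All 10 passed the filter of a mean normalized count of at least 5. At these thresholds 18.7% of all tested genes were called lower and 0.0659% higher in dyW, and no gene of the table was called in either direction when WT2, WT4 or dyW2 was left out alone. At an adjusted P-value under 0.05 no subunit was called either, against 29.6% of tested genes lower and 1.0% higher. Itgb1, Itga7 and Itgav had an unadjusted P-value under 0.05, Itga7 on the lower side (41.5% of tested genes) and the other two on the higher side (2.81%). Without the library labelled dyW3, Itga4 was called lower at both thresholds (25.8% of tested genes at 0.01 and 41.4% at 0.05). It passed the filter through WT alone in that fit, where its dyW mean was 1.97. Itgb1 and Itgav were then called higher at 0.05 (1.47%) and not at 0.01 (0.0809%). The median log2 fold change of the subunits was −0.17, beside −1.99 over all tested genes and 0.20 over the 6111 genes with a mean of at least 50 normalized counts. The subunit median was 0.34 without the library labelled dyW3 and 0.95 with libraries scaled to the same total, beside −2.54 and −0.98 over all tested genes. Against the median of 0.20, Itgb1, Itgb5, Itga6, Itga1 and Itgav were above and the other 5 below.

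**Figure D1:**
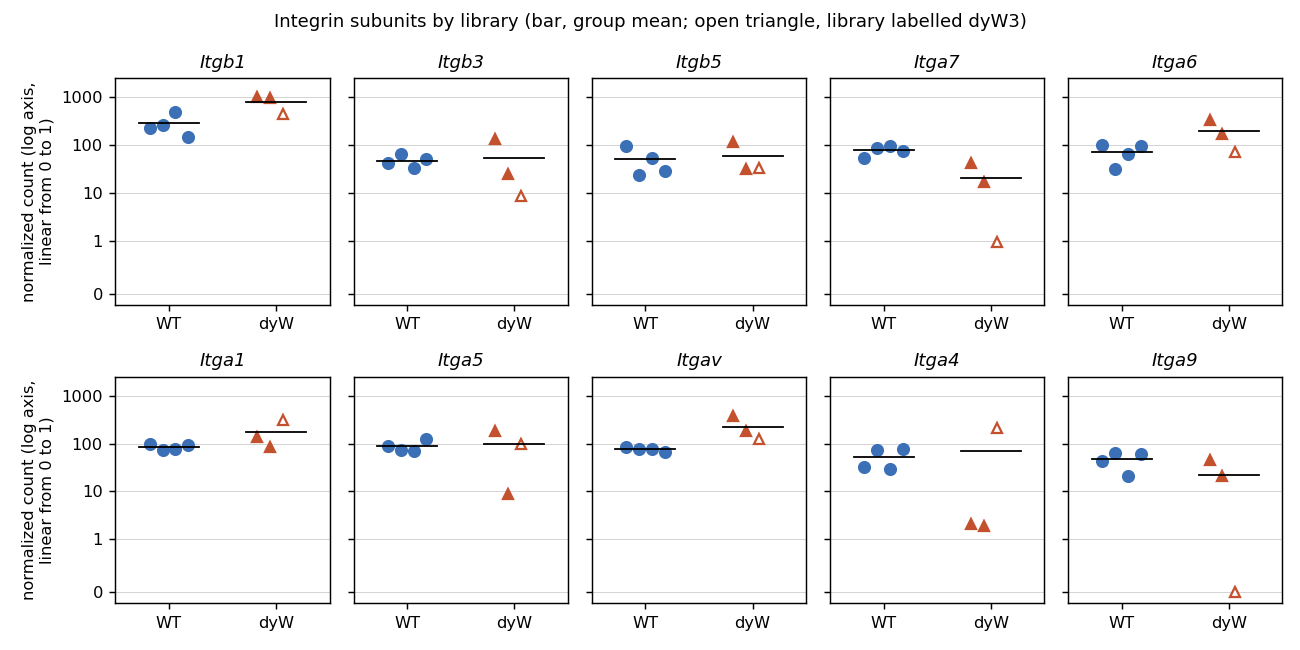
Normalized counts (log axis, linear from 0 to 1) of the 10 integrin subunits in each WT library (circles) and dyW library (triangles), with the library labelled dyW3 as an open triangle and bars at the group means. Itga7 is lower in all 3 dyW libraries than in any WT library, Itgav is higher in all 3, and Itga4 is near 2 normalized counts in dyW1 and dyW2 alone.

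Itgb1, the β subunit shared by most of these receptors (ENSMUSG00000025809, GRCm39 chromosome 8, 129411876 to 129460618, plus strand), held the most reads. It had 235, 267, 496 and 151 normalized counts in WT, and 1024 in dyW1, 959.9 in dyW2 and 449 in the library labelled dyW3. Both libraries with low Lama2 were above every WT library, and the library labelled dyW3 was below WT3, so the groups overlapped. The WT mean was 287 ± 148 (SD, n = 4) and the dyW mean 811 ± 315 (SD, n = 3), a ratio of 2.82. This gave a log2 fold change of 1.54 (SE 0.57, 95% interval 0.25 to 2.82, limma adjusted P-value of 0.0676), and the exact permutation test over 35 splits gave 0.114. Without the library labelled dyW3 it was 1.92 with an adjusted P-value of 0.0434 in limma, and without WT3, the highest WT library, 1.84 with 0.0280. Leaving out WT1, WT2, WT4, dyW1 or dyW2 alone gave 1.27 to 1.55, with limma adjusted P-values of 0.123 to 0.174. Libraries scaled to the same total gave 2.68 (limma adjusted P-value of 0.0216), and quantile normalization gave 0.89 (0.526), so the size of the difference varied with the scaling. Itgb1 was the subunit farthest above the receptor level in WT, at 4.32 to 23.0 times it. No other annotated gene overlaps it.

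Itgb3 (ENSMUSG00000020689, chromosome 11, 104498826 to 104561302, plus strand) encodes β3, a partner of αv that is also the β subunit of the platelet fibrinogen receptor. Its values were 42.6, 64.7, 32.8 and 50.3 normalized counts in WT and 133 in dyW1, 24.5 in dyW2 and 8.79 in the library labelled dyW3. The dyW libraries lay on both sides of WT, and their SD of 67.4 exceeded their mean of 55.3. Their log2 fold change of −0.55 (SE 0.91, adjusted P-value of 0.670 by limma) turned to 0.31 without the library labelled dyW3 and to 0.56 with libraries scaled to the same total.

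Itgb5 (ENSMUSG00000022817, chromosome 16, 33649988 to 33771137, plus strand) encodes β5, which binds vitronectin together with αv. It had 96.0, 24.3, 53.3 and 28.3 normalized counts in WT and 115, 32.5 and 34.2 in dyW1, dyW2 and the library labelled dyW3. These ranges largely coincided, with a log2 fold change of 0.21 (95% interval −1.53 to 1.95, limma adjusted P-value of 0.853) that was 0.49 without the library labelled dyW3. In WT, Itgb3 was at 1.30 to 1.89 and Itgb5 at 0.513 to 3.98 times the receptor level.

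Itga7, the α subunit of the laminin receptor of the fiber (ENSMUSG00000025348, chromosome 10, 128769621 to 128794169, plus strand), was at 53.3, 89.0, 98.5 and 75.5 normalized counts in WT. It was at 43.2 in dyW1, 16.7 in dyW2 and 0.977 in the library labelled dyW3, the last from 2 reads (95% exact Poisson interval 0.118 to 3.53 normalized counts). Every dyW library was below every WT library, as were 31.5% of all tested genes, and 6.81% of those with a mean of at least 50. With libraries scaled to the same total the groups overlapped, and the log2 fold change was −1.74 (limma adjusted P-value of 0.311). WT1, the lowest WT library, rested on 10 reads with an interval of 25.6 to 98.0, which includes the value of dyW1. These intervals cover counting error only, since PCR reads without molecular identifiers are not independent molecules. The means were 79.1 ± 19.6 (SD, n = 4) and 20.3 ± 21.3 (SD, n = 3), and the exact permutation test gave 0.0571, the smallest value that 4 against 3 libraries allow. On the log2 scale the difference was −2.76 (SE 1.02, 95% interval −5.08 to −0.43, limma adjusted P-value of 0.0696). It was −1.48 without the library labelled dyW3 (limma adjusted P-value of 0.105) and −3.72 without dyW1 (0.0216). It stayed negative under each alternative tried, from −3.90 to −1.02. Itga7 was at 1.56 to 3.28 times the receptor level in WT and at 0.217 times it in the library labelled dyW3.

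Markers of muscle fibers also differed between libraries. The summed level of 9 myofiber markers was 2484 to 67781 normalized counts in WT and 54.1, 7078 and 4116 in dyW1, dyW2 and the library labelled dyW3, with 5 of the 9 at 0 in dyW1 and 1 at 0 in each of WT1 and WT4. Acta1, which encodes skeletal α-actin, was at 1973 to 52989 in WT and at 4.09, 3667 and 1807 in the dyW libraries. All 9 markers had a negative log2 fold change (median −2.66, beside −1.99 over all tested genes), and 1 of them, Ttn, was lower at an adjusted P-value under 0.05 (29.6% of all tested genes). Ttn, which encodes the sarcomere protein titin, had 203 to 556 normalized counts in WT and 31.9, 166 and 42.5 in dyW, below every WT library (limma adjusted P-value of 0.0201, and 0.0446 without the library labelled dyW3), though its WT values were 0.505 to 0.888 times the receptor level. Within dyW, Itga7 was highest in dyW1, the library with the least Acta1. The order of so few libraries cannot show the part of fiber RNA in the Itga7 values, which was not tested. Without WT1 and dyW1, the libraries lowest in myofiber markers, the log2 fold change of Itga7 was −3.90 (limma adjusted P-value of 0.0379). In such bulk libraries, fewer cells of a type and less RNA per cell cannot be told apart.

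Itga6, the laminin-binding subunit of muscle progenitors and of endothelial and Schwann cells (ENSMUSG00000027111, chromosome 2, 71575960 to 71689757, plus strand), had values on the other side of WT. They were 101, 32.4, 65.6 and 94.4 normalized counts in WT and 335 in dyW1, 176 in dyW2 and 73.7 in the library labelled dyW3. Both libraries with low Lama2 were above all WT libraries, and the library labelled dyW3 was within their range. For Itga6 the log2 fold change was 1.27 (SE 0.71, 95% interval −0.35 to 2.89, limma adjusted P-value of 0.206), and 1.84 without the library labelled dyW3 (limma adjusted P-value of 0.0685). Summed markers of endothelial cells (8 genes, 0 of them at 0 in any library) were 565 to 752 in WT and 1506, 859 and 644 in dyW1, dyW2 and the library labelled dyW3. Itga6 and these markers had the same order among the dyW libraries and not among the WT libraries, where WT1 had the most Itga6 and the least of them. Summed markers of muscle progenitors (6 genes, 3 of them at 0 in WT1, 2 in dyW1 and 1 in each of the other dyW libraries) were 112 to 242 in WT and 40.1, 249 and 157 in the dyW libraries. Those of Schwann cells (3 genes, 2 of them at 0 in dyW1 and none elsewhere) were 48.0 to 201 in WT and 0.195, 808 and 135 in dyW. Both were thus lowest in dyW1, where Itga6 was highest. The part of other cell types in the Itga6 values was not tested.

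Itga1, which encodes α1, the collagen IV receptor subunit of mural and stromal cells (ENSMUSG00000042284, chromosome 13, 115089632 to 115238677, minus strand), was even in WT. Its 4 WT values were 96.0, 72.8, 77.9 and 91.3 normalized counts, an SD of 10.9 on a mean of 84.5. In dyW it was at 138, 86.4 and 306 in dyW1, dyW2 and the library labelled dyW3. The highest value thus came from the library with undiminished Lama2. Itga1 had a log2 fold change of 0.87 (SE 0.60, adjusted P-value of 0.294 by limma), and of 0.38 without the library labelled dyW3. Itga1 was at 0.509 to 1.32 times the receptor level in WT and at 26.4 times it in the library labelled dyW3. The genes Mocs2, Pelo and Gm10734, among others, overlap it, and no strand setting of the read assignment was stated.

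Itga5 and Itgav encode the α subunits that bind the RGD motif of fibronectin and vitronectin. Itga5, the fibronectin receptor subunit (ENSMUSG00000000555, chromosome 15, 103252713 to 103275270, minus strand), had 90.6, 72.8, 69.7 and 126 normalized counts in WT. It had 186 in dyW1, 8.98 in dyW2 and 98.6 in the library labelled dyW3, so that the dyW libraries held both its highest and its lowest value. Its log2 fold change of −0.63 (SE 0.97, adjusted P-value of 0.650 by limma) turned to 0.63 without dyW2 and was −1.03 without the library labelled dyW3. Itga5 was at 2.04 to 4.99 times the receptor level in every WT library and ranked after Itgb1 there.

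Itgav (ENSMUSG00000027087, chromosome 2, 83554403 to 83637260, plus strand) had the narrowest spread in WT, with 85.3, 75.5, 77.9 and 66.1 normalized counts. It had 372 in dyW1, 186 in dyW2 and 124 in the library labelled dyW3. All 3 dyW libraries were above all 4 WT libraries, as for 3.28% of all tested genes and 12.2% of those with a mean of at least 50. The WT mean was 76.2 ± 7.93 (SD, n = 4) and the dyW mean 227 ± 129 (SD, n = 3), and the exact permutation test gave 0.0571. Itgav had a log2 fold change of 1.42 (SE 0.57, 95% interval 0.13 to 2.71, limma adjusted P-value of 0.0864). It was 1.78 without the library labelled dyW3 (limma adjusted P-value of 0.0423) and 2.56 with libraries scaled to the same total (0.0325). It was smaller with quantile normalization (0.92, limma adjusted P-value of 0.535), with size factors from genes with a mean of at least 50 (0.99, 0.204) and without dyW1 (0.99, 0.219). In WT, Itgav was at 0.913 to 2.03 times the receptor level. Of 8 fibroblast markers, 6 had a positive log2 fold change, as had 5268 of all 25791 tested genes and 3405 of the 6111 with a mean of at least 50. At an adjusted P-value under 0.05, 1 of them, the receptor gene Pdgfra, was higher, beside 1.0% of all tested genes. It was higher in every dyW library (305 ± 29.5 normalized counts, against 83.2 ± 37.3 in WT, SD, limma adjusted P-value of 0.0286, and 0.0504 without the library labelled dyW3). Osr1, a transcription factor gene of the list, had the lowest log2 fold change, −2.56, with 10.7 to 72.8 in WT and 0, 5.94 and 10.3 in dyW (limma adjusted P-value of 0.0912). The 8 summed markers were 1336 in dyW1, where 3 of them were at 0, and 14835 and 14185 in dyW2 and the library labelled dyW3, beside 1753 to 8131 in WT. The part of fibroblast RNA in the Itgav values was not tested.

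Itga4 and Itga9 are related α subunits that pair with β1 and bind VCAM1, osteopontin and tenascin, in addition to fibronectin. Itga4 (ENSMUSG00000027009, chromosome 2, 79085660 to 79163467, plus strand), a subunit of leukocytes and migrating progenitors, had 32.0, 72.8, 28.7 and 78.7 normalized counts in WT. It was at 2.05 in dyW1 and 1.90 in dyW2, from 21 and 15 reads, and at 209.5 in the library labelled dyW3, from 429 reads. The 3 dyW libraries thus held its lowest and its highest values, in the same split as Lama2. The log2 fold change was −1.99 (SE 1.45, adjusted P-value of 0.322 by limma) over all 7 libraries. Without the library labelled dyW3 it was −4.04 with an adjusted P-value of 0.00308 in limma, and Itga4 was the only subunit called at 0.01 in that fit. Its dyW mean was then 1.97 normalized counts, so it passed the filter of a mean of at least 5 through WT alone. In WT, however, Itga4 was at 0.474 to 0.804 times the receptor level, so that its WT reads were not above this background. The 8 summed immune markers were at 469 in the library labelled dyW3 and at 117 to 642 in the others, with 4 of the 8 at 0 in dyW1, 3 in dyW2 and 0 in the library labelled dyW3. Ptprc, which encodes the leukocyte antigen CD45, was at 0 in dyW1 and dyW2 and at 99.6 in the library labelled dyW3, within its WT range of 58.6 to 120. The macrophage genes Adgre1 (0, 0 and 44.4) and C1qa (0, 0.126 and 77.2) were also low in dyW1 and dyW2 alone. In WT, however, Ptprc was at 0.686 to 1.48 and Adgre1 at 0.644 to 1.48 times the receptor level. C1qa was at 0.971 to 2.11 times it, and this level was 0 in dyW1 and dyW2. The other 5 immune markers were not low in these 2 libraries alone. Cd68 (39.2, 31.4 and 32.7) and Fcer1g (28.3, 58.9 and 53.2) had reads in all 3 dyW libraries. Tyrobp (50.4, 0 and 147) and Csf1r (18.9, 0.126 and 14.7) were low in dyW2 and not in dyW1. Among the dyW libraries, Lyz2 (0, 265 and 0.488) was high in dyW2 alone, and it was at 0 to 321 normalized counts in WT. Pf4, the only platelet marker analysed here, was also highest in the library labelled dyW3 (602 normalized counts, against 0 to 60.3 elsewhere). The platelet integrin genes were not, with Itga2b at 0 reads and Itgb3 at its lowest value there. Whether blood cells contribute to the Itga4 reads was not tested.

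**Figure D2:**
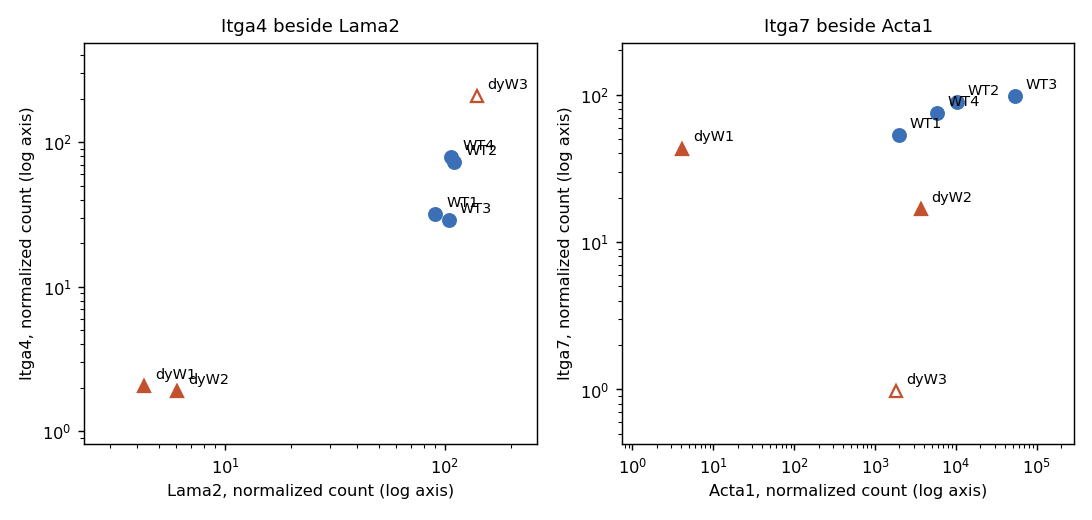
Left, normalized counts of Itga4 against Lama2. Right, Itga7 against Acta1, both on log axes, for 4 WT libraries (circles) and 3 dyW libraries (triangles, the library labelled dyW3 open). Itga4 and Lama2 are both low in dyW1 and dyW2 and both highest in the library labelled dyW3. Among the dyW libraries, Itga7 is highest in dyW1, which has 4.09 normalized counts of Acta1.

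Itga9 (ENSMUSG00000039115, chromosome 9, 118435722 to 118730072, plus strand) had 42.6, 64.7, 20.5 and 59.8 normalized counts in WT and 45.2 and 21.5 in dyW1 and dyW2. It had 0 reads in the library labelled dyW3, which allows a level of up to 1.47 normalized counts at 3 reads. The values of dyW1 and dyW2 lay within the WT range, and the log2 fold change of −2.12 (SE 1.26, limma adjusted P-value of 0.229) was −0.45 without the library labelled dyW3. Itga7 and Itga9 thus shared their lowest value in the library in which Itga4 and Itga1 were highest.

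**Figure D3:**
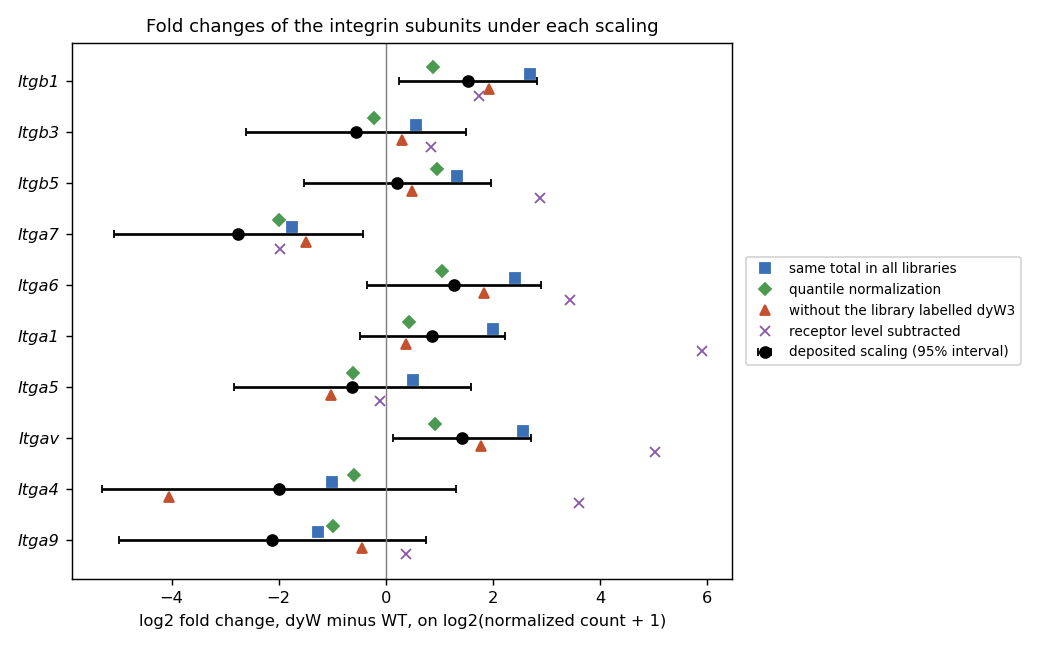
Log2 fold change, dyW minus WT, of each integrin subunit with the deposited scaling (black circles with 95% intervals) and under 4 other treatments of the libraries (colored symbols). Itgb1, Itgb5, Itga6, Itga1 and Itgav are to the right of 0 and Itga7 to the left under all 5, whereas Itgb3, Itga5, Itga4 and Itga9 have points on both sides, for Itga4 only where subtraction sets all 4 WT values to 0.

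To compare subunits with each other, their levels were divided by exon length. Itgb1 was first in all 7 libraries, with 48.1 ± 24.7 normalized counts per kb in the 4 WT libraries and 136 ± 52.8 in the 3 dyW libraries (SD). In WT, Itga5 (16.9 ± 4.84) and Itga7 (9.54 ± 2.36) followed, each below the preceding subunit in all 4 libraries. From Itgb3 (7.20) through Itgb5, Itga6, Itgav and Itga9 (6.07), neighbours in the order changed places in 1 or 2 of the 4 libraries and did not differ beyond their spread. Itga1 (3.96 ± 0.51) and Itga4 (3.17 ± 1.57) came last, also without a consistent order between them. In dyW, Itgav (18.4 ± 10.5), Itga5 (18.4 ± 16.6) and Itga6 (17.1 ± 11.6) came after Itgb1 with no separation among them, and Itga7 (2.45 ± 2.57) had the lowest mean, below Itga9 in 2 of the 3 libraries. Without the library labelled dyW3, Itga4 was last with 0.118 normalized counts per kb and Itga7 was ninth. Of the 10 subunits, 2 to 5 were above 2 times this level in each WT library, 8 were in the library labelled dyW3, and all 10 had reads in dyW1 and dyW2, where the median receptor gene had none. How much of the WT reads of the other subunits shares the source of the receptor reads was not tested.

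**Figure D4:**
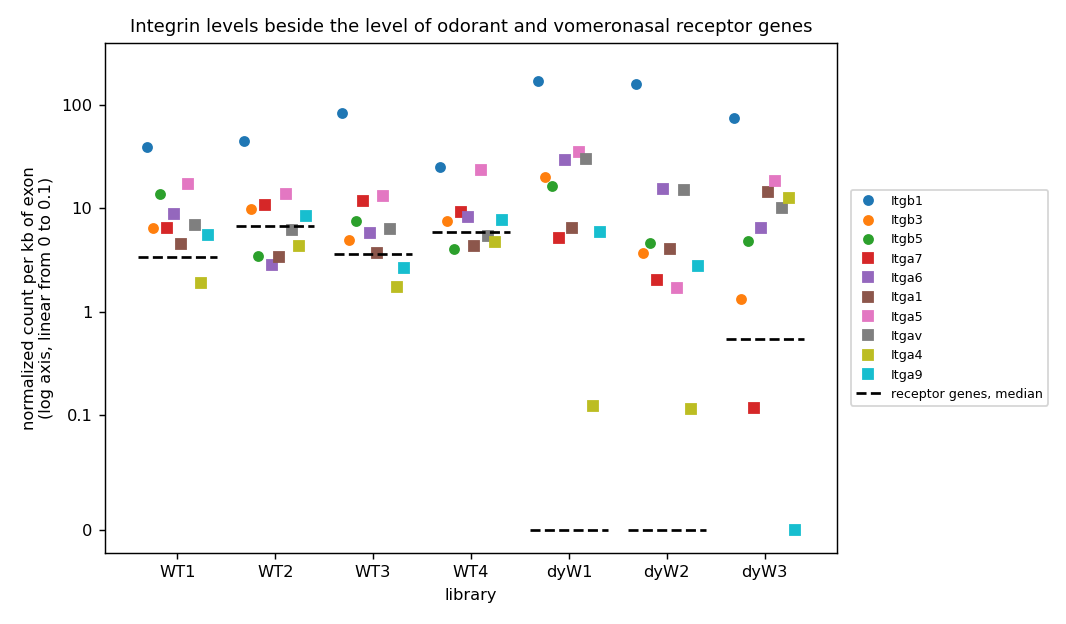
Normalized counts per kb of exon (log axis, linear from 0 to 0.1) of β subunits (circles) and α subunits (squares) in each library, with the median of odorant and vomeronasal receptor genes as a dashed line. Itgb1 is the highest in all 7 libraries, and most α subunits lie near the dashed line in WT1 to WT4 and well above it in dyW1 and dyW2.

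Ratios of subunits within a library do not depend on the size factors. Of 11 ratios per kb, 4 did not overlap between the groups, all 4 lower in dyW. Such a lack of overlap, lower in dyW, was common for any gene divided by the same denominators, with 46.9% of all tested genes over Itgb1. Among genes with a mean of at least 50, it was found for 17.9% over Itgb1, 24.8% over Itgav and 16.3% over Itga6. Itga7 was at 0.164, 0.240, 0.143 and 0.360 of Itgb1 in WT, and at 0.0303, 0.0125 and 0.00157 of it in dyW1, dyW2 and the library labelled dyW3. The difference was −4.66 on the log2 scale, and −3.44 without the library labelled dyW3, with an exact permutation value of 0.0571, which is the smallest possible and does not reach 0.05 in any of the 11 ratios. Between the laminin-binding subunits, Itga7 over Itga6 was 0.723, 3.78, 2.06 and 1.10 in WT and 0.177, 0.131 and 0.0182 in the dyW libraries, a difference of −4.40, and of −3.38 without the library labelled dyW3. Both ratios stayed negative in each alternative tried.

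The β partners of αv also had lower ratios to it in the dyW libraries. Itgb3 over Itgav was 0.785 to 1.60 in WT and 0.665, 0.245 and 0.133 in dyW (difference −2.03 on the log2 scale, and −1.49 without the library labelled dyW3). Itgb5 over Itgav was 0.562 to 1.97 in WT and 0.540, 0.305 and 0.483 in dyW (difference −1.21, and −1.30 without it). The gap between the groups was narrow for Itgb5, whose WT2 value rested on 9 reads. All 7 α subunits had a negative difference over Itgb1, from −0.11 for Itgav to −4.66 for Itga7 (−0.07 for Itga6 to −6.52 for Itga4 without the library labelled dyW3), as had 96.6% of all tested genes and 88.4% of those with a mean of at least 50, so that the count does not set these subunits apart. In WT, Itga4 was below the receptor level in all 4 libraries, and Itga1, Itgav and Itgb5 were below it in WT2 and WT4. Itga6 in WT2 and Itga9 in WT3 were also below it, and the ratios of these subunits there rest on such reads. Itgb1 over the sum of the 7 α subunits was 0.401 to 1.84 in WT and 1.53, 3.90 and 1.21 in dyW, with overlap between the groups (exact permutation test, 0.229).

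As shares of the 7 α subunits per kb, Itga7 made up 12.6%, 21.7%, 26.3% and 14.4% in WT and 4.64%, 4.89% and 0.190% in dyW1, dyW2 and the library labelled dyW3. Itgav made up 8.49% to 14.0% in WT and 26.9%, 36.7% and 16.2% in the dyW libraries. These were the 2 shares without overlap between the groups, and no background from other genes was computed for such shares. They were 18.8% ± 6.41 in WT against 3.24% ± 2.65 in dyW (SD) for Itga7. For Itgav they were 12.1% ± 2.50 against 26.6% ± 10.3 (exact permutation test, 0.0571 for each). Itga5 held the largest share in WT, 27.6% to 37.5%, and 31.1%, 4.10% and 29.9% in dyW. The 3 dyW libraries differed in makeup from each other, since Itga6 and Itgav led in dyW2 with 37.5% and 36.7%, while Itga1 and Itga4 reached 23.1% and 20.2% in the library labelled dyW3.

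**Figure D5:**
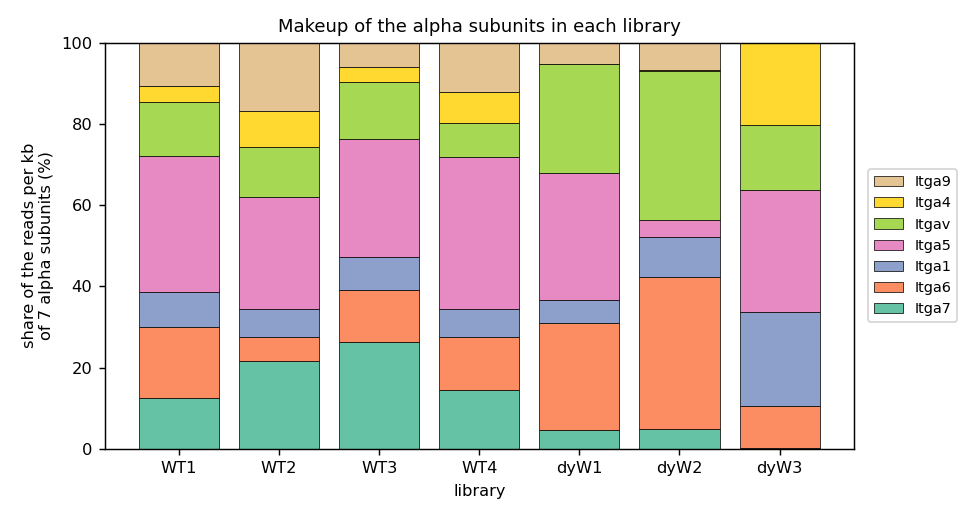
Share of each α subunit in the reads per kb of 7 α subunits, by library, as stacked bars that add to 100%. The Itga7 part is 12.6% to 26.3% in WT and at most 4.89% in the dyW libraries, and Itga4 is visible in the library labelled dyW3 and nearly absent from dyW1 and dyW2.

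Among 6110 other genes with a mean of at least 50 normalized counts, those most like Itgb1 over the 7 libraries, by Pearson correlation of log2(normalized count + 1), were Rbp4, Rab2a, Hnrnpa3, Ddx5 and Ypel5 (r of 0.972 to 0.982). Ddx5, an RNA helicase gene, had 497 to 1368 normalized counts in WT and 2985, 1882 and 1202 in dyW1, dyW2 and the library labelled dyW3. The genes most like Itga7 were Pola2, Sorbs2, Traf4, Gnpat and Olfml2a (0.961 to 0.981). Sorbs2, which encodes a sarcomere-associated adaptor protein, had 133 to 195 in WT and 176, 74.7 and 15.6 in dyW. These correlations are over 7 libraries, each with 1 depth and size factor common to all its genes, and they were the highest among the 6110 genes compared.

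Of 17 other integrin subunits of the genome, 16 were tested, and 14 of these had a negative log2 fold change, as had 20523 of all 25791 tested genes and 2706 of the 6111 with a mean of at least 50. Of the 16, 5 were called lower and 0 higher, beside 18.7% and 0.0659% of all tested genes (median −2.86, beside −1.99). These were Itgb4, the β subunit of hemidesmosomes (73.7 ± 47.4 normalized counts in WT against 0.757 ± 1.20 in dyW, limma adjusted P-value of 0.00398), Itgae and Itgb7 of intraepithelial lymphocytes (0.00672 and 0.00559), Itga3 of epithelia (0.0083) and Itgax of dendritic cells (0.00755). Each of the 5 had a dyW mean of at most 1.85 and passed the filter of a mean of at least 5 only through WT, where they were at 0.322 to 5.20 times the receptor level. With libraries scaled to the same total, no gene of the table was called, while the log2 fold changes of these 5 were −4.65 (Itgb4, adjusted P-value of 0.0221 by limma) to −3.33 (Itgb7). Quantile normalization gave −2.95 (Itgb4, limma adjusted P-value of 0.193) to −0.46 (Itgb7, 0.852). Itga2, a collagen receptor subunit, had the highest fold change of the list without being called, with 10.7 to 56.6 normalized counts in WT and 241, 62.1 and 64.0 in dyW (log2 fold change 1.78, limma adjusted P-value of 0.123). It was named after its values were seen.

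Among laminin chains, the ligands of α7β1 and α6β1, 1 of 8 was called lower and 0 higher, beside 18.7% and 0.0659% of all tested genes. Their median log2 fold change of −1.75 was near that of all tested genes, −1.99. Lama3, an epithelial laminin chain, had 42.6 to 107 normalized counts in WT and 4.58, 0 and 1.95 in the dyW libraries (limma adjusted P-value of 0.00374), and it passed the filter through WT alone, at 0.970 to 1.45 times the receptor level. Lamb1, the β1 laminin chain and the most abundant of the list, had 74.6, 189, 263 and 293 in WT and 112, 1100.1 and 340.4 in dyW, with overlap between the groups. For the 5 collagen chains that α1β1 binds, all log2 fold changes were positive, as were those of 3405 of the 6111 genes with a mean of at least 50, and their median was 0.90. Of these, Col1a2, a chain of type I collagen, was called higher at an adjusted P-value under 0.05 (1.0% of all tested genes) and not under 0.01. It had 736 to 2581 normalized counts in WT and 12046, 5971 and 4104 in dyW (log2 fold change 2.10, limma adjusted P-value of 0.0157, and 2.45 with 0.0181 without the library labelled dyW3).

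The 12 ligands of the RGD-binding subunits and of α4 and α9 split evenly by sign, where 20523 of all 25791 tested genes were negative (median −0.08, beside −1.99). Of the 12, 1 was called lower, beside 18.7% of all tested genes, and 0 higher. The called gene was Vtn, which encodes vitronectin, with 1 to 11 reads in WT and no read in any dyW library, at least 21.0-fold lower at a floor of 3 reads per dyW library (limma adjusted P-value of 0.00507). It passed the filter through WT alone, where its level was 0.494 to 1.40 times the receptor level. Spp1, which encodes osteopontin, was set by single libraries, with 74905 normalized counts in dyW1 and 16501 in WT3, and 0.253 to 21.6 in the other 5.

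Of 21 genes that act at the integrin tail or beside the receptor, 20 were tested, and 1 was called lower and 0 higher at an adjusted P-value under 0.01 (median log2 fold change −1.04), beside 18.7% and 0.0659% of all tested genes. This was Fermt1, the kindlin of epithelia, with 18.5 to 43.1 normalized counts in WT and 0, 0 and 2.93 in dyW (limma adjusted P-value of 0.00493), and it passed the filter through WT alone, at 0.871 to 1.10 times the receptor level. At an adjusted P-value under 0.05, Pxn, which encodes the focal adhesion adaptor paxillin, and Fermt3, the kindlin of blood cells, were also lower, and Lims1 was higher, so that 3 of 20 were lower and 1 higher, beside 29.6% and 1.0% of all tested genes. Pxn had 41.0 to 239.9 normalized counts in WT and 23.1, 8.09 and 0.488 in dyW (log2 fold change −4.43, limma adjusted P-value of 0.0128, and −3.32 with 0.0177 without the library labelled dyW3). Lims1, which encodes PINCH1 of the complex with integrin-linked kinase, had 66.1 to 101 in WT and 253, 672 and 201 in dyW (log2 fold change 2.04, limma adjusted P-value of 0.0281, and 2.38 with 0.0177 without that library). Cd81, a tetraspanin gene and the most abundant of these, had 181 to 1631 in WT and 532, 1873 and 644 in dyW. Tmem182, which encodes a muscle membrane protein that binds integrin β1, had 0, 6, 3 and 8 reads in WT and 0 in each dyW library. At the same floor its mean was at least 16.7-fold lower in dyW, and the groups overlapped through WT1 (limma adjusted P-value of 0.0692). In WT, Tmem182 was at 0 to 0.626 times the receptor level, so that its reads there were not above this background.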

How the data were processed

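RNA of lysed muscle fibers from 4 WT and 3 dyW fetuses was made into full-length cDNA (SMART-seq2) and tagmented libraries. After trimming (Cutadapt) and alignment to GRCm39 (STAR), the authors used FeatureCounts to count uniquely mapped reads per gene and deposited these counts divided by 1 DESeq2 size factor per library. Versions, annotation release and strand setting are not given in the sources used here. A second deposited table holds the authors' own comparison (fold changes and P-values) and was not used. Every deposited value was a whole multiple of the value of 1 read (100% within 0.1 read), which gave the reads per library, 470804 to 18297106. Few reads in WT limit the precision there.

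A mean of 5 or more normalized counts was required for testing, which used limma 3.58.1 (R 4.3.3, lmFit and eBayes with trend) on log2(normalized count + 1), which understates the change of low genes, with Benjamini-Hochberg adjustment over 25791 genes. Calls needed an adjusted P-value below 0.01 with a log2 fold change beyond 1.5 in size. Ratios, shares and single genes were tested by the exact two-sided permutation test over all 35 assignments. Exon lengths and positions came from GENCODE release 39 on GRCm39, which held 99.2% of the gene identifiers. Fits were tested on simulated data.

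The subunits and gene lists were chosen with earlier results of these data known. Named genes are the 10 subunits, Lama2 and Tmem182, the genes of each list with an adjusted P-value under 0.05 (at most 5) or the highest mean, and the 5 genes most like Itgb1 and Itga7. Others are marked where named, and 1 gene of the lists is not reported here. Alternatives were other pseudocounts, filters and scalings, a replicate block, leaving out each library and, chosen after seeing the data, voom, subtraction of the receptor level and leaving out WT1 with dyW1.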

Additional observations from a re-analysis of the deposited data

Results flagged for a closer look

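Of 63 sets of 4 WT values tested for a sample that stands apart (Dixon's test), 5 had one, and none of these was an integrin subunit. Chance alone flags about 1 set in 20. In WT3 these were Spp1 with 16501 normalized counts, Cd81 with 1631, Acta1 with 52989 and Ctsk, an osteoclast protease gene, with 258. In WT1 it was Col2a1, the main collagen gene of cartilage, with 415687 normalized counts.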

How the results depend on the processing

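At an adjusted P-value under 0.01, no subunit was called higher in any alternative, and 1 was called lower (Itga4, without dyW3). Of 199 alternative values of single subunits, 186 kept sign and side of the threshold. All genes called lower and higher numbered 4830 and 17. They numbered 0 and 0 with a pseudocount of 10, a mean of at least 50, libraries scaled to the same total, the receptor level subtracted, or WT1 and dyW1 left out, and 2 and 0 after quantile normalization. At an adjusted P-value under 0.05 they were 7625 and 259. Genes called higher were 41 with a pseudocount of 0.1, 10 without a filter, 5 with median-of-ratios scaling over genes with a mean of at least 50, and 68 with voom. Leaving out 1 library gave 0 to 6698 lower (0 without WT2, WT4 or dyW2) and 0 to 25 higher. The cause was not tested. Subunits without overlap were 0 lower and 3 higher with the same total, 0 and 4 with the receptor level subtracted, and 1 to 2 and 1 to 3 with 1 library left out. The shares of all genes without overlap under these settings were not computed, so these counts have no background. The same total moved the median log2 fold change of genes with a mean of at least 50 from 0.20 to 1.33.

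Subtraction of the receptor level set lower values to 0, which for Itga4 and Ttn were all 4 WT values, so a positive sign follows from the subtraction and is no bound. Log2 fold changes then turned to 0.84 (Itgb3), 3.60 (Itga4), 0.37 (Itga9), 1.04 (Lama2) and 4.14 (Ttn), and log2 ratios over Itgb1 to 1.62 (Itga6), 4.20 (Itga1), 3.02 (Itgav) and 0.83 (Itga4). Same total gave 0.56 (Itgb3) and 0.50 (Itga5), voom 0.99 and 0.35, and median-of-ratios scaling −0.20 for Itgb5. With 1 library left out, Itgb3 ranged from −1.58 to 0.31, Itgb5 from −0.37 to 0.59, Itga5 from −1.48 to 0.63 and Lama2 from −4.09 to −1.72. Ratios ranged from −0.62 to 0.17 (Itga6 over Itgb1) and −0.40 to 0.12 (Itgav over Itgb1). The share of Itga4 ranged from −5.75 to 4.29 percentage points, and was −1.56 without division by length. The same total moved the median of all genes from −1.99 to −0.98, voom to −1.70, and quantile normalization to 0.06.

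Correlations of same-numbered WT and dyW libraries were 0.147, −0.049 and −0.088, beside −0.122 to 0.225 for the other pairs. They gave no sign that the numbers pair the samples, but so few libraries cannot exclude it. With the replicate block 1 gene was called lower and 0 higher, and no subunit (Itgb1 1.27, limma adjusted P-value of 0.207). The planned edgeR and DESeq2 fits were not run, and voom on the recovered reads was used in their place.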
